A study of Homo sapiens with 3 samples.

Results

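The genes described here encode the enzymes and transporters that carry glucose carbon through glycolysis, the pentose phosphate pathway and glycogen, and the enzymes that decide the fate of pyruvate. They were taken as all probe sets besides controls that the platform annotation pairs with exactly 1 of 36 named genes, with the older symbol PKM2 counted as PKM. The annotation paired 77 probe sets with 34 of these genes, out of 19775 genes so represented and 54613 probe sets besides controls. SLC16A1 and SLC16A3, the lactate transporters MCT1 and MCT4, had no probe set paired with them alone and were not analysed here.

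The cells were HT29, a widely used line of colorectal adenocarcinoma cells, transduced with lentivirus and grown in DMEM with fetal bovine serum in air with CO2. The miR-146a group carried a miR-146a expression construct and had 2 arrays, labelled replicates 1 and 2. The vector group carried the empty vector and had 1 array. The promoter that drives the construct, and whether the transduced cells were a pool or 1 clone, were not given in the sources used here, nor was it stated that the miR-146a replicates were separate cultures. The p-values below therefore rest on how far the 2 miR-146a arrays lie apart, a spread that may be purely technical, while the vector has no replicate. The only comparison asks which transcripts differ between the miR-146a arrays and the vector array. The construct is named for miR-146a, whose 5p arm is the better known mature form. Its RefSeq sequence (GRCh38.p14, chr5:160485372-160485393, plus strand) is shown because it defines the treatment, with the seed, bases 2 to 8, in capitals.
hsa-miR-146a-5p: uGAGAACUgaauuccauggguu

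Glycolysis splits glucose into pyruvate in the cytosol, with commitment at phosphofructokinase. Pyruvate is then either reduced to lactate by lactate dehydrogenase or admitted to mitochondria, where the pyruvate dehydrogenase complex turns it into acetyl-CoA unless its kinases switch the complex off. Several of these enzymes exist as isoforms, and some isoforms are known to be induced by low oxygen through HIF-1. Colorectal cancer cells are known for high glucose use even with oxygen present.

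Values are the authors' log2 signals, so a difference of 1 is a factor of 2, and a level can be compared between arrays for 1 probe set but not between probe sets. Differences are the mean of the miR-146a arrays minus the vector array. Each gene was represented by its brightest probe set on average, and was tested when that signal exceeded 5.13, the median of all probe sets besides controls. That left 12444 genes, with 33 of the 34 members among them. The SD over genes of the difference between the 2 miR-146a arrays was 0.11. It was 0.20 for replicate 1 minus the vector and 0.19 for replicate 2 minus the vector. All 8 colon epithelial markers examined (EPCAM, CDH1, KRT8, KRT18, KRT20, CDH17, VIL1 and CDX2) lay above the filter, as did 2 of 6 fibroblast markers (COL1A1 and DCN), 2 of the 4 leukocyte markers with a probe set (CD14 and LYZ) and 1 of 4 endothelial markers (PECAM1). The summed linear signal of the epithelial list was 44470 and 44359 in the miR-146a arrays against 44291 in the vector array. It was 6886 and 8065 against 8024 for the leukocyte list. For the fibroblast list it was 237 and 240 against 257, and for the endothelial list 99.8 and 101 against 98.6. Most of the leukocyte sum came from LYZ, at log2 signals of 12.72 and 12.96 against 12.95, while CD14 read 6.41 and 6.23 against 6.15. Within the epithelial list CDH17, a cadherin of intestinal epithelium, read 5.39 and 5.24 in the miR-146a arrays against 5.86 in the vector array (difference -0.54), and KRT20 differed by -0.24. The part of these in the members' differences was not tested. In RNA from a whole culture, fewer cells that express a gene and less of its RNA per cell cannot be told apart. With 3 arrays the precision of each value is limited by their number.

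More members were lower than higher in the miR-146a arrays, and most differences were small. Their largest differences were those of ALDOC, PDK1, ENO2 and GBE1, an aldolase, a pyruvate dehydrogenase kinase, an enolase and the glycogen branching enzyme. Both miR-146a arrays lay below the vector array for 20 of the 33 members, where 28.8% of all genes tested did so. Both lay above it for 6 members, where 40.2% of all genes did so, and for 7 the vector value was not outside the miR-146a pair. These counts use 1 vector array, so the 2 replicate differences are not independent. The median difference of the members was -0.07 (medians of -0.06 in replicate 1 and -0.10 in replicate 2), against 0.01 over all genes tested. Only ALDOC, PDK1, ENO2 and GBE1 were at least 0.25 lower in both arrays, 4 members where 3.25% of all genes were. No member was that much higher in both, where 6.51% of all genes were. None was 1.5-fold lower in both arrays through its used probe set, where 0.297% of all genes were, and none was 1.5-fold higher, where 0.546% were. The gap from the vector to the nearer miR-146a array exceeded the gap between the replicates for 22 members, where it did so for 47.5% of all genes.

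In limma's moderated test with Benjamini-Hochberg adjustment over all genes, 0 members and 0 genes passed 0.05 in either direction (0% of genes called lower and 0% called higher). At an unadjusted p under 0.05 there were 6 members lower and 1 higher, among 1120 genes lower and 1813 higher. Replicate values were identical for 1610 of the 12444 genes, 5 members among them (PFKFB4, TPI1, PFKM, PDHB and GBE1), which gives those genes very small standard errors and leaves the test little shared information on the spread. With the variance prior taken from the genes whose replicates differ, 4 members passed as lower, where 2.36% of all genes did. They were ALDOC, PDK1, ENO2 and GBE1. No member passed as higher, where 4.76% of all genes did. That setting, like every limma fit here, assumes that the vector array varies like the miR-146a arrays. With limma's robust prior 2 members passed, GBE1 and PFKFB4, both lower and both with equal replicates, where 1.62% of all genes passed as lower and 3.48% as higher.

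**Figure D1:**
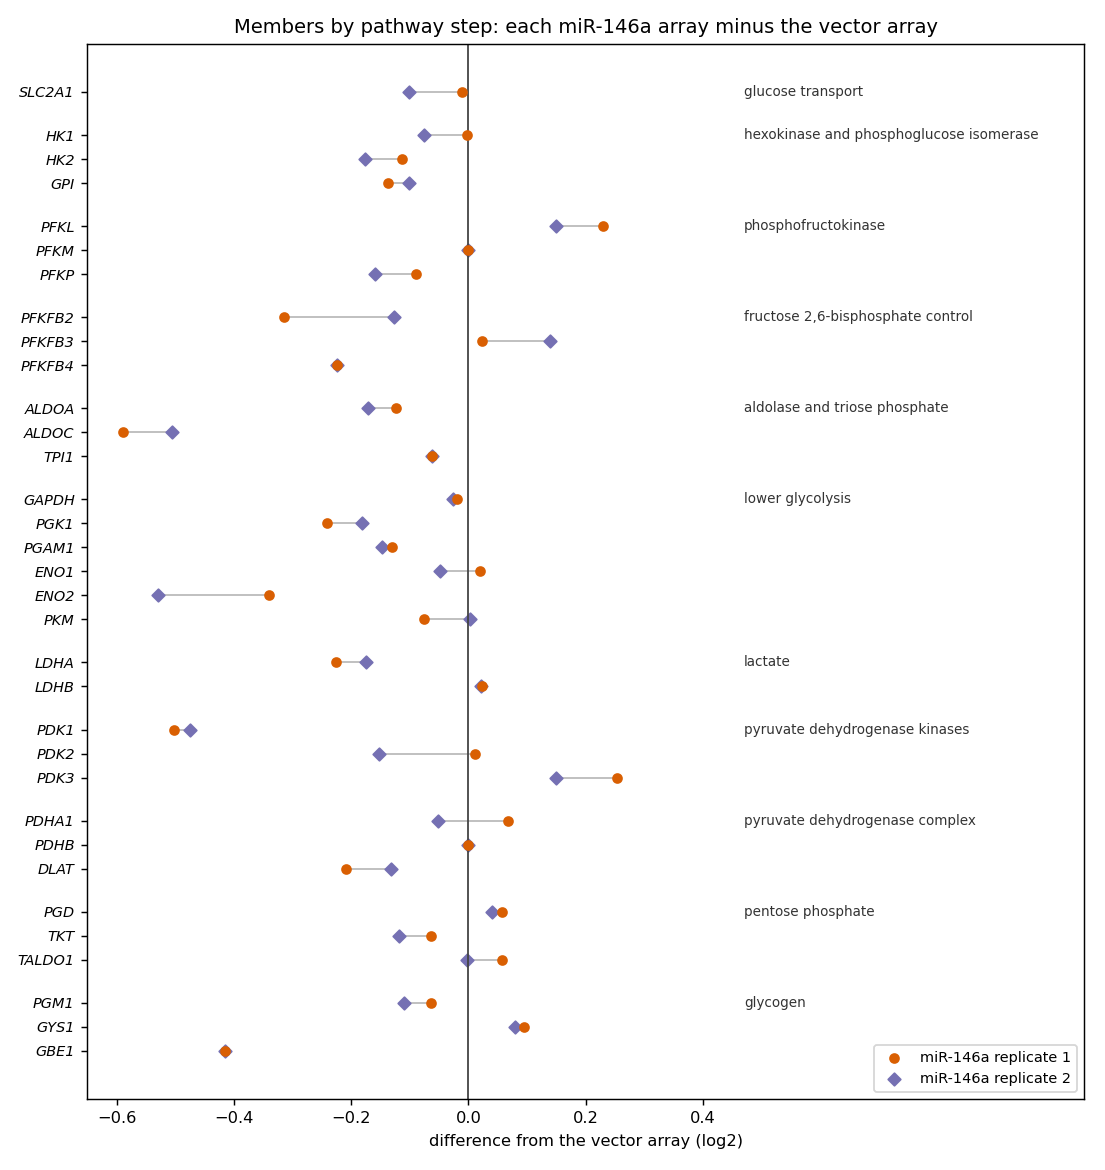
Difference of each miR-146a array from the vector array (x axis, log2) for the 33 members tested, grouped by pathway step, with a circle for replicate 1 and a diamond for replicate 2. ALDOC, PDK1, ENO2 and GBE1 lie farthest left, between -0.59 and -0.34, while PFKL and PDK3 lie farthest right, between 0.15 and 0.25.

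**Figure D2:**
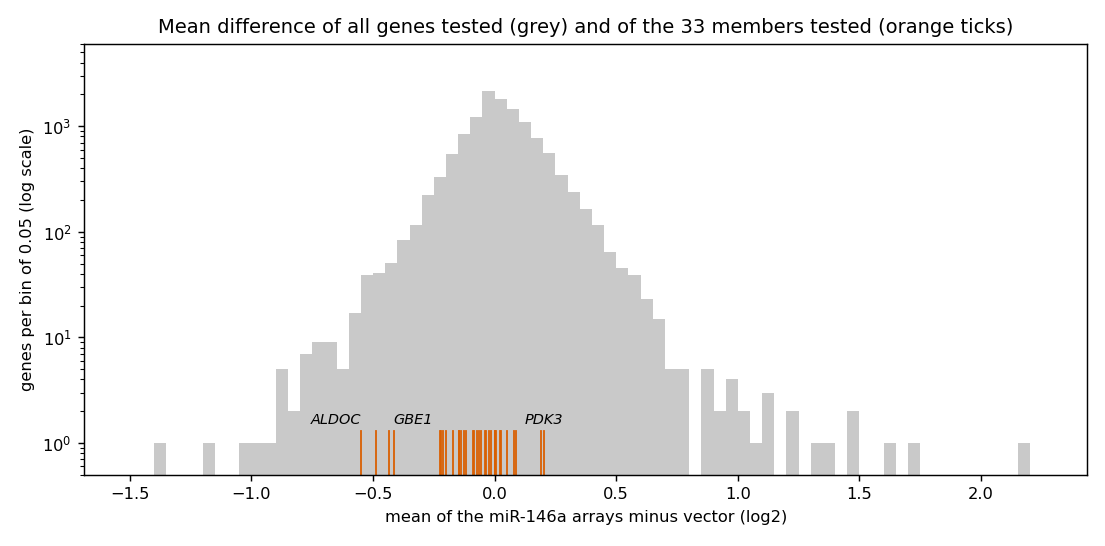
Mean difference of the miR-146a arrays from the vector array (x axis, log2) for the 12444 genes tested (grey, genes per bin of 0.05 on a log scale) with an orange tick for each of the 33 members. The members span -0.55 to 0.20, inside the range of all genes from -1.35 to 2.16.

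At the entry of glucose into the pathway the arrays differed little. SLC2A1, the GLUT1 glucose transporter, read 10.27 and 10.18 in the miR-146a arrays against 10.28 in the vector array, and its other probe set read 6.39 and 6.53 against 6.49. SLC2A3, the GLUT3 transporter, had no probe set above the filter, and its brightest one read 4.18 and 4.55 in the miR-146a arrays against 4.55 in the vector array. Through these probe sets neither transporter stood clear of the vector by more than its replicates stood apart. Of the still dimmer probe sets of SLC2A3, one read 2.77 and 2.77 against 2.69 and the other 2.59 and 2.76 against 2.65. HK1 and HK2 encode hexokinases, which trap glucose as glucose 6-phosphate. HK2 read 8.20 and 8.13 in the miR-146a arrays against 8.31 in the vector array (difference -0.15), and HK1 read 10.51 and 10.43 against 10.51 (difference -0.04). The 2 other probe sets of HK2 lay below the filter and read higher than the vector on average, by 0.42 and 0.18, so the mean of all its probe sets was 0.15. GPI, phosphoglucose isomerase, read 11.84 and 11.88 in the miR-146a arrays against 11.98 in the vector array (difference -0.12).

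The 3 phosphofructokinase subunits lay on different sides of the vector. PFKL, the liver-type subunit, read 8.11 and 8.03 in the miR-146a arrays against 7.88 in the vector array, a difference of 0.19, with its other probe set at 0.12. PFKP, the platelet-type subunit, read 10.83 and 10.76 against 10.92 (difference -0.12). PFKM, the muscle-type subunit, read 9.80 in all 3 arrays. The PFKFB enzymes set the level of fructose 2,6-bisphosphate, the main activator of phosphofructokinase. PFKFB4 read 7.03 and 7.03 in the miR-146a arrays against 7.25 in the vector array (difference -0.22), and its other probe set read 5.09 and 5.41 against 5.50 (difference -0.25). PFKFB2 read 7.39 and 7.57 against 7.70 (difference -0.22), but another of its probe sets read 6.05 in all 3 arrays. PFKFB3 read 7.32 and 7.43 in the miR-146a arrays against 7.29 in the vector array (difference 0.08), a gap smaller than that between its replicates.

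ALDOC, the brain-type aldolase, had the lowest difference of all members. It read 8.23 and 8.32 in the miR-146a arrays (mean 8.28 ± 0.06, SD, n = 2) against 8.82 in the vector array. Both miR-146a arrays lay well below the vector, and the gap to the nearer one (0.51) exceeded the gap between the replicates (0.08). The difference was -0.55 (limma SE 0.06), or 1.46-fold lower, and ranked 60th from the lowest of the genes tested. Its adjusted p in limma was 0.157, and 0.00421 with the prior from unequal replicates. ALDOA, the main aldolase isoform of dividing cells, read 13.13 and 13.08 against 13.25, a difference of -0.15. The other probe sets of ALDOA differed by -0.17 and -0.29. All 3 carry the suffix that Affymetrix gives to probe sets prone to cross-hybridisation. TPI1, triose phosphate isomerase, lay near the vector, at 12.58 and 12.58 in the miR-146a arrays against 12.64.

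In the lower, energy-yielding steps, GAPDH was level across the arrays and ENO2 was not. GAPDH, glyceraldehyde 3-phosphate dehydrogenase, read 13.88 and 13.87 in the miR-146a arrays against 13.89 in the vector array, and its 3 probe sets differed by -0.02 to -0.01. PGK1, phosphoglycerate kinase, which makes the first ATP of glycolysis, read 12.58 and 12.64 in the miR-146a arrays against 12.82 in the vector array, a difference of -0.21. All 5 of its probe sets above the filter were lower in both miR-146a arrays, by -0.55 to -0.21 on average. The most different of them read 10.93 and 11.11 against 11.57. PGAM1, phosphoglycerate mutase, read 12.14 and 12.13 against 12.27 (difference -0.14).

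ENO2, the neuron-type enolase, read 8.54 and 8.35 in the miR-146a arrays (mean 8.45 ± 0.13, SD, n = 2) against 8.88 in the vector array. The vector value stood 0.34 above the nearer of them, and the replicates stood 0.19 apart. This difference of -0.44 (limma SE 0.13), 1.35-fold lower, had an adjusted p of 0.317 in limma and of 0.022 with the prior from unequal replicates. ENO1, the ubiquitous enolase, gave no single answer. Its used probe set read 13.22 and 13.15 in the miR-146a arrays against 13.20 in the vector array (difference -0.02), while another read 10.52 and 10.58 against 10.97 (difference -0.42). The remaining one above the filter differed by -0.03, and one below the filter differed by 0.11. PKM, the pyruvate kinase of dividing cells, read 12.67 and 12.75 in the miR-146a arrays against 12.75 in the vector array, and its other probe set differed by -0.13.

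**Figure D3:**
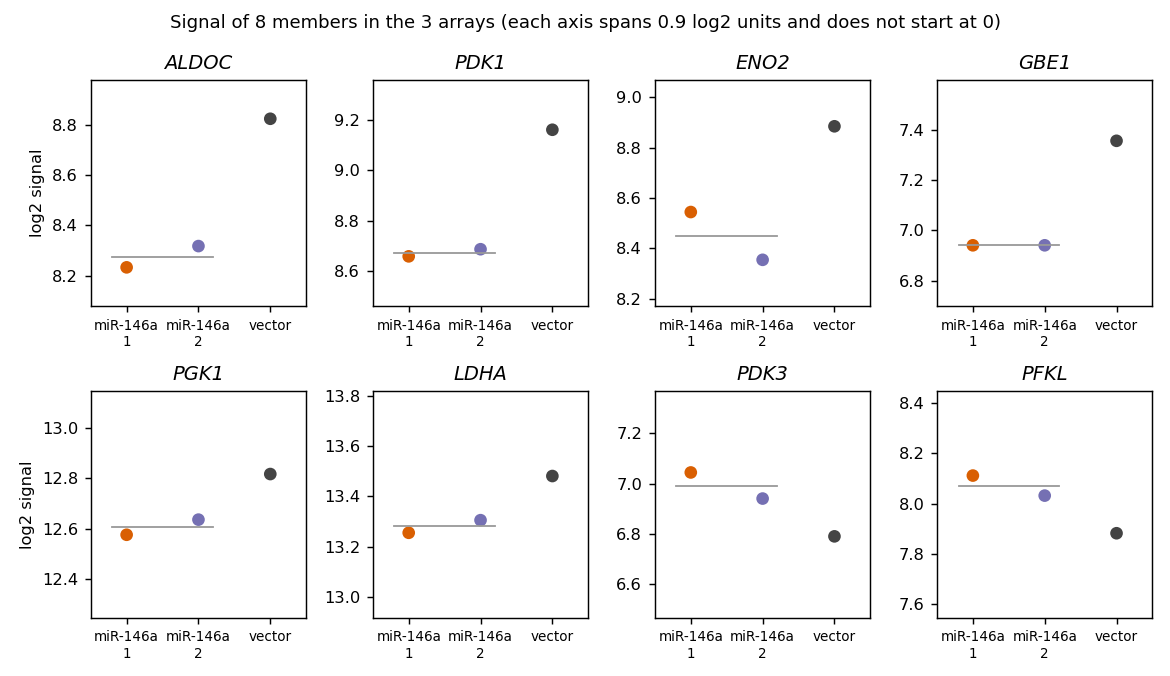
Log2 signal (y axis, not starting at 0) of 8 members in miR-146a replicate 1, miR-146a replicate 2 and the vector array, with a line at the miR-146a mean. In the panels of ALDOC, PDK1, ENO2, GBE1, PGK1 and LDHA both miR-146a arrays lie below the vector array, and in those of PDK3 and PFKL both lie above it.

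Of the lactate dehydrogenase subunits at the pyruvate branch, LDHA was lower and LDHB was nearly level. LDHA, whose subunit favours lactate formation, read 13.26 and 13.31 in the miR-146a arrays against 13.48 in the vector array (difference -0.20). LDHB, whose subunit favours the return of lactate to pyruvate, read 13.63 and 13.63 against 13.61 (difference 0.02), with its other probe set at 0.04. Neither passed in limma with either prior (adjusted p of 0.215 and 0.349, or 0.21 and 0.968 with the prior from unequal replicates), and the difference between the subunits was not tested.

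The pyruvate dehydrogenase kinases, which phosphorylate and switch off the complex, spanned nearly the whole range of the members. PDK1 read 8.66 and 8.69 in the miR-146a arrays (mean 8.67 ± 0.02, SD, n = 2) against 9.16 in the vector array. Its replicates stood 0.03 apart and the nearer one lay 0.47 below the vector. The difference was -0.49 (limma SE 0.02), 1.40-fold lower, with an adjusted p of 0.118 in limma and of 0.00688 with the prior from unequal replicates. Another, dimmer probe set of PDK1 read 5.43 and 5.10 against 6.18 (difference -0.92), and was the 1 member probe set above the filter at least 1.5-fold lower in both arrays, where 0.688% of all probe sets were. Its remaining probe set read 5.73 and 5.22 against 5.75, so that only replicate 2 stood clear of the vector. PDK3 read 7.04 and 6.94 in the miR-146a arrays against 6.79 in the vector array (difference 0.20, the highest among the members), but its other probe sets above the filter differed by 0.00 and 0.07. PDK2 read 7.24 and 7.08 against 7.23 (difference -0.07), and its other probe set differed by -0.20.

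Within the complex the E1 subunits were nearly level and DLAT was lower. PDHA1 and PDHB, the subunits of the E1 component, differed by 0.01 and 0.00. Their other probe sets differed by 0.01 to 0.09. DLAT, the E2 acetyltransferase, read 9.55 and 9.63 in the miR-146a arrays against 9.76 in the vector array (difference -0.17), with its other probe sets at -0.07 and -0.21. All 3 were lower in both arrays, but its adjusted p did not pass in limma with either prior.

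The pentose phosphate enzymes, which yield NADPH and ribose 5-phosphate, lay close to the vector. PGD, 6-phosphogluconate dehydrogenase, read 10.22 and 10.20 in the miR-146a arrays against 10.16 in the vector array (difference 0.05). TKT, transketolase, read 12.01 and 11.95 against 12.07 (difference -0.09, other probe sets -0.16 and -0.05). TALDO1, transaldolase, read 12.60 and 12.54 against 12.54 (difference 0.03).

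Among the glycogen enzymes, GBE1, which makes the branches of glycogen, stood apart. It read 6.94 and 6.94 in the miR-146a arrays against 7.36 in the vector array through its only probe set. Its replicates were exactly equal, which sets its SD at 0 and its limma SE at 0.007. The difference of -0.41, 1.33-fold lower, had an adjusted p of 0.118 in limma and of 0.0147 with the prior from unequal replicates, where its SE was 0.09. GYS1, the muscle-type glycogen synthase, read 8.27 and 8.25 in the miR-146a arrays against 8.17 in the vector array (difference 0.09). PGM1, phosphoglucomutase, read 8.78 and 8.73 against 8.84 (difference -0.09).

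Probe sets of 1 gene gave a second view of the same arrays. Of the 64 member probe sets above the filter, 38 were lower in both miR-146a arrays, where 33.1% of all such probe sets were, and 10 were higher in both, where 36% were. With every probe set tested separately and the prior from unequal replicates, a setting chosen after the data were seen, 8 member probe sets passed as lower, where 4.78% of all probe sets did, and 0 passed as higher, where 4.14% did. The 8 belonged to ALDOC, ENO2 and GBE1 (1 each), PDK1 (2), PGK1 (2) and ENO1 (1). In that setting of limma the adjusted p was 0.00385 and 0.0169 for the PGK1 probe sets and 0.0143 for the ENO1 one. With limma's usual prior and every probe set tested separately it was 0.258 and 0.298 for PGK1 and 0.163 for ENO1. Of the 19 members with more than 1 probe set above the filter, 3 had probe sets on both sides of the vector on average, TPI1 and PGD among them, with PFKFB2 at 0.00 through 1 probe set. Across all 77 probe sets, 13 carry the suffix for possible cross-hybridisation and 30 the suffix for probes shared by several transcripts, and 2 further probe sets paired with a member and another gene were not used. Close relatives and pseudogenes of GAPDH, ALDOA, TPI1, LDHB, ENO1, PGK1 and PGAM1 can add signal to their probe sets.

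**Figure D4:**
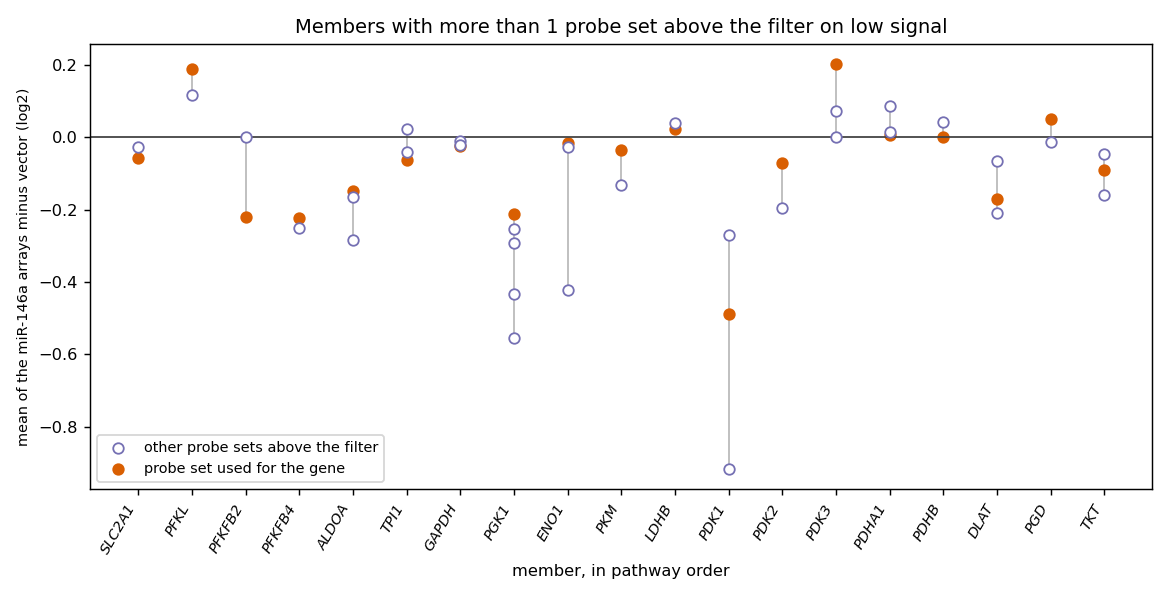
Mean difference of the miR-146a arrays from the vector array (y axis, log2) for every probe set above the filter of the 19 members that have more than 1, in pathway order, with the used probe set filled. The probe sets of PGK1, PDK1 and ENO1 spread most, from -0.55 to -0.21, from -0.92 to -0.27 and from -0.42 to -0.02.

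Isoforms generally known for induction by low oxygen were also set beside 5 others. This is a description, since both lists were drawn up with earlier results of these arrays known. Of 11 such isoforms tested (SLC2A1, HK2, PFKFB3, PFKFB4, ALDOC, ENO2, LDHA, PDK1, PDK3, GBE1 and PGK1), both miR-146a arrays were below the vector for 9 and above it for 2, and the median difference was -0.21. Over all genes tested those shares were 28.8% and 40.2%. Of the 5 others (HK1, PFKM, PFKFB2, LDHB and PDK2), 2 were lower and 1 was higher, with a median of -0.04. Whether these 5 respond to low oxygen was not examined here. The 2 exceptions among the first were PFKFB3 and PDK3. SLC2A1 (-0.06) lay near the vector. Further members known for induction by low oxygen were in neither list, and several lay nearer the vector. Their differences were -0.15 for ALDOA, -0.06 for TPI1, -0.04 for PKM and -0.02 for both GAPDH and ENO1. PFKL (0.19), GYS1 (0.09) and PGD (0.05), also in neither list, lay above the vector in both arrays.

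The promoters of the 4 lowest members are shown with those of PGK1, lower in every probe set above the filter, and of PDK3, the highest member, so that the letters can be set beside the values above. Each is the 250 bases before a RefSeq transcription start on GRCh38.p14, written 5′ to 3′ on the gene's strand. Capitals mark ACGTG and GCGTG, the core letters of the hypoxia response element, or their complements CACGT and CACGC. PDK1 has 2 listed starts, and the one shown is the downstream one, since the upstream one holds neither motif.
ALDOC, chr17:28576896-28577145 (minus strand): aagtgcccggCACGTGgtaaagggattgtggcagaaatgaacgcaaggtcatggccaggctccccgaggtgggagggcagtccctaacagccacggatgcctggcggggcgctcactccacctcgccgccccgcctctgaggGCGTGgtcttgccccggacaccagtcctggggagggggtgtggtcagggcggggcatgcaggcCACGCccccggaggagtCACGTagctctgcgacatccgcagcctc
PDK1, chr2:172555840-172556089 (plus strand): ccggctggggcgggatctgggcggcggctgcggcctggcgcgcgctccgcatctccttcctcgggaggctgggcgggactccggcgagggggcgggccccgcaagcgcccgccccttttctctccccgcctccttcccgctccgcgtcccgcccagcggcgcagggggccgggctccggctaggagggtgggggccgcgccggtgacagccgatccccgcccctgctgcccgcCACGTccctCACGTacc
ENO2, chr12:6914330-6914579 (plus strand): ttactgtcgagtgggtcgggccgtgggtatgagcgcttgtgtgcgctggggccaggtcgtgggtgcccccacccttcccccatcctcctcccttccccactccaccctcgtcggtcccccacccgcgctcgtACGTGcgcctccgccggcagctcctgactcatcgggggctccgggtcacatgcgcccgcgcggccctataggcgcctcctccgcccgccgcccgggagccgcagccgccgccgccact
GBE1, chr3:81761646-81761895 (minus strand): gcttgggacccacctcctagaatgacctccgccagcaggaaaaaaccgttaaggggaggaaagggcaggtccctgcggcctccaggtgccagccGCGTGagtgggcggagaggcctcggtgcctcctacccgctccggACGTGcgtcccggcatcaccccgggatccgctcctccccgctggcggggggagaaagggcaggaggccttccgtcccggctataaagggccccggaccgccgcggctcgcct
PGK1, chrX:78103998-78104247 (plus strand): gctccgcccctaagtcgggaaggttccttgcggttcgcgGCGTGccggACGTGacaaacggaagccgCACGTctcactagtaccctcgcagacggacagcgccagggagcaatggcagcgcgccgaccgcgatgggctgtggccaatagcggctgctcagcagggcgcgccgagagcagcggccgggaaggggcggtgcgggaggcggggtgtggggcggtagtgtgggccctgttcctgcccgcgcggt
PDK3, chrX:24465036-24465285 (plus strand): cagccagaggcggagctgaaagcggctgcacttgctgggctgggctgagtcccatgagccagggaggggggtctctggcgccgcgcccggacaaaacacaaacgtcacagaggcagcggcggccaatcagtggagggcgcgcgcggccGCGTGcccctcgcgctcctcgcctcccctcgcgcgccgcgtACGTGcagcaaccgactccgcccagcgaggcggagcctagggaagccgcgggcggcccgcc

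ALDOC held 3 matches to ACGTG and 2 to GCGTG, PDK1 2 and 0, ENO2 1 and 0, GBE1 1 and 1, PGK1 2 and 1, and PDK3 1 and 1. The promoters shown do not stand for all members. Among those not shown, PDHB, level across the arrays, held 3 and 3, and PGD, higher in both miR-146a arrays, 1 and 2. The upstream start of LDHA, lower in both, held 5 and 0, while SLC2A1, TKT and PGAM1, also lower in both, held neither motif. Matches were counted on both strands, so a palindromic CACGTG counts as 2 matches to ACGTG. RefSeq promoters were matched by symbol for 32 of the 33 members tested, with 58 starts in all. Of these, 39.7% held ACGTG and 36.2% held GCGTG. Over all 35116 promoters of the same length the shares were 18.5% and 32.2%, and over the 14525 promoters of genes tested they were 21.7% and 42.7%. The median GC content was 69% in the member promoters, 58% in all promoters and 64.4% in those of genes tested, and the part of base composition in these shares was not tested. Of the starts of members lower in both arrays 47.2% held ACGTG, against 27.3% of those of the other members. These shares count starts and not genes. HK1 in the first group and PFKM in the second had 7 starts each, some of them overlapping. For GCGTG the shares ran the other way, 33.3% against 40.9%, and for CACGTG they were 13.9% and 13.6%. A match is a run of letters and does not show that a factor binds there.

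Other genes of the same pathways, not chosen as members, were described from lists made with earlier results known. In the lactate and pyruvate list, both arrays were lower for 8 of 11 genes tested and higher for 1 (median -0.14). Its most different member was SLC16A4, of the monocarboxylate transporter family, at 7.29 and 7.30 in the miR-146a arrays against 7.89 in the vector array (1.52-fold lower, adjusted p of 0.118 in limma and of 0.0024 with the prior from unequal replicates). PDK4, the remaining pyruvate dehydrogenase kinase, read 6.27 and 6.59 against 6.93 (1.42-fold lower, adjusted p of 0.421 in limma and of 0.026 with that prior). DLD, the E3 component of the complex, differed by -0.24 through its used probe set and by -0.01 through its other one. PDHX, the E3-binding component, was added after its value was seen and differed by -0.14.

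Among the other transporters and glycolytic genes, both arrays were lower for 4 of 12 and higher for 5 (median 0.01). SLC2A6, a transporter of the GLUT family, read 6.17 and 6.17 in the miR-146a arrays against 5.64 in the vector array (1.45-fold higher, adjusted p of 0.118 in limma and of 0.00418 with the prior from unequal replicates). ADPGK, an ADP-dependent glucokinase, differed by 0.14 through its used probe set and by -0.08 through its other one. SLC2A13, a myo-inositol transporter, differed by -0.29 with replicates 0.31 apart. Of 8 other pentose phosphate genes, 1 was lower and 5 were higher in both, with a median of 0.06. RPIA, ribose 5-phosphate isomerase, read 9.51 and 9.59 against 9.25 (difference 0.30), and PRPS1 and PGLS differed by 0.13 and 0.10. The other probe set of PRPS1 differed by -0.08 and that of PGLS by 0.16. None of these 8 passed with either prior.

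Of 14 other glycogen genes, both arrays were lower for 9 and higher for 3 (median -0.03). PPP1R3D, a subunit that targets protein phosphatase 1 to glycogen, read 7.29 and 7.06 in the miR-146a arrays against 6.74 in the vector array (1.36-fold higher, adjusted p of 0.363 in limma and of 0.0254 with the prior from unequal replicates). PYGB, the brain-type glycogen phosphorylase, read 10.91 and 10.89 against 11.20 (difference -0.30), and UGP2, which makes UDP-glucose, 10.08 and 10.11 against 10.36 (difference -0.27, with its other probe set at -0.70). Of 4 gluconeogenic genes tested, PCK2 differed by -0.25, G6PC3 by 0.19 and FBP1 by -0.11. In the citric acid cycle, both arrays were lower for 10 of 17 genes and higher for 4 (median -0.09), and 0 passed in limma with either prior. SDHD and MDH1 differed by -0.21 and -0.14, and OGDH by 0.25, although its probe sets ranged from -0.27 to 0.25.

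The array's control probe sets read GAPDH at 3 places along its transcript, and the values depended on the place. The 5′ control read 12.90 and 12.93 in the miR-146a arrays against 13.22 in the vector array (difference -0.31). The middle one differed by -0.09 and the 3′ one by -0.02. ACTB showed the same order, with -0.23 at the 5′ end, -0.08 in the middle and 0.04 at the 3′ end. Where the members' probe sets lie along their transcripts was not analysed here, so the part of this 5′ to 3′ gradient in the members' differences was not tested. The differences of ALDOC, PDK1, ENO2 and GBE1 ran from -0.55 to -0.41, and the 5′ control differences were -0.31 and -0.23. Those of the remaining members through their used probe sets ran from -0.22 to 0.20. The controls do not show how large the gradient is at the members' probe sets, so setting these values side by side does not test its part. Through other probe sets above the filter PGK1 reached -0.55 and ENO1 reached -0.42.

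**Figure D5:**
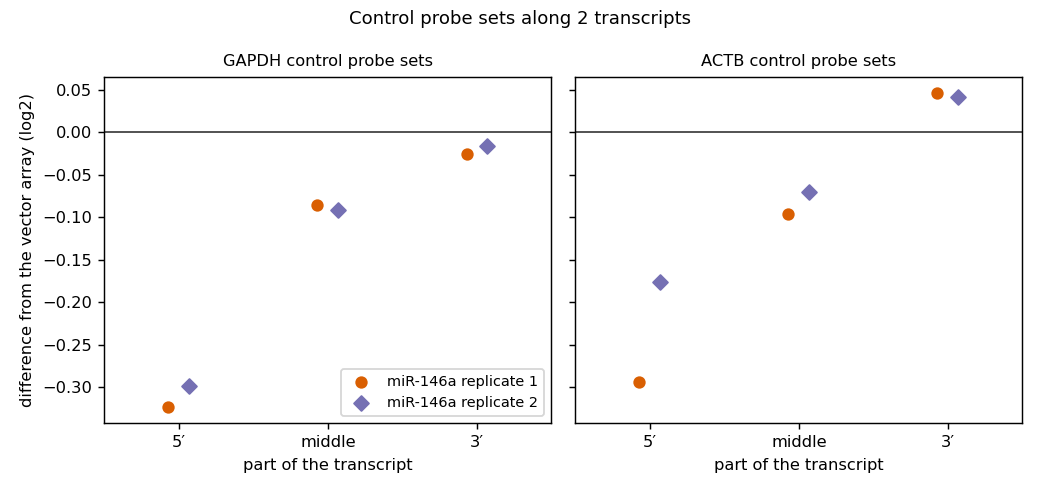
Difference of each miR-146a array from the vector array (y axis, log2) in the 5′, middle and 3′ control probe sets of GAPDH and ACTB, with a circle for replicate 1 and a diamond for replicate 2. Both arrays are lowest at the 5′ end, at -0.32 and -0.30 for GAPDH, and within 0.05 of the vector at the 3′ end.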

How the data were processed

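Per the labels' protocols, total RNA was reverse transcribed and biotinylated cRNA was hybridised to Affymetrix arrays. The deposited table holds the authors' log2 signals for 54613 probe sets besides controls on 3 arrays, made with RMA, per the submitters' processing notes. RMA corrects background, normalizes between arrays and summarises each probe set. Its version and the arrays processed together were not given in the sources used here.

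Of these probe sets, 41091 had 1 gene in the platform annotation, 1801 had several and 11721 had no entry, and 41037 of the first were matched to current RefSeq symbols by Entrez number. Replicate numbers come from the titles. Per gene the probe set with the highest mean of both group means was kept if above the median of all (5.13). Limma 3.58.1 in R 4.3.3 (lmFit, eBayes, two-sided, Benjamini-Hochberg over 12444 genes, threshold 0.05) was run on simulated data with known changes, whose noise came from genes with unequal replicates, so that the effect of ties was not simulated. It has 1 residual degree of freedom, from the miR-146a arrays alone. Prior degrees of freedom were 0.55, and 10.3 with the prior from genes with unequal replicates. Members named with values in every array are those at least 0.25 from the vector in both arrays and the most different of each pathway step, and further members and values were added after they were seen. Of each further list up to 3 genes are named by the size of the smaller difference. Members, lists and tests were chosen with earlier results of these data known. List genes with no probe set of their own were not analysed here. Promoter and microRNA sequences are from RefSeq (GRCh38.p14). Figures were drawn with matplotlib 3.10.9.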

Additional observations from a re-analysis of the deposited data

How the results depend on the processing

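Counts of genes passing limma were 0 over all genes and 0 over members with each gene's probe sets averaged, with every probe set separately, without the filter, with a filter at percentile 70, with an intensity trend, and with cyclic loess or quantile normalization. The prior from genes with unequal replicates gave 886 genes and 4 members, the robust prior 635 genes and 2 members, and the unequal prior with every probe set separately, added after seeing the data, 2436 probe sets and 8 of members. Testing every probe set separately put 38 below and 10 above the vector in both arrays and 1 at least 1.5-fold lower, because 64 probe sets are counted and not 33 genes. Without either miR-146a replicate the median member difference ranged from -0.10 to -0.064, the members below the vector from 21 to 24, those above from 7 to 10, and those at least 1.5-fold lower from 0 to 1 (ALDOC, without replicate 2). Each of these settings leaves 1 array a group and no test. Of 33 members, 24 had no value of the opposite sign under any alternative run, ALDOC, PDK1, ENO2 and GBE1 among them. PFKM and PDHB are counted there too, but their main difference was 0 and had no sign to reverse. PFKM was at -0.0095 with cyclic loess and at 0.0089 with quantile normalization. HK2 turned to 0.15 and PGD to -0.00050 with probe sets averaged, and PFKFB2 was at 0.00082, TPI1 at 0.022 and PGD at -0.014 through another probe set; the cause was not tested. Without either replicate, ENO1 ranged from -0.049 to 0.019, PKM from -0.075 to 0.0032, PDK2 from -0.15 to 0.011, PDHA1 from -0.053 to 0.067 and TALDO1 from -0.0026 to 0.057. No paired analysis was possible because the vector array is single and carries no replicate number in the labels. The number of arrays and the single vector array limit every value, and signal over background was not analysed here.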
